A study of Arabidopsis thaliana with 6 samples.

Results

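The comparison described is that of vip5 mutant Arabidopsis thaliana with wild type, taken from oligonucleotide arrays hybridised with RNA of 3-week-old plants. Its members are the arrays titled vip5 (2) and wild type (2), 4 of the 6 arrays in the series, over all 22746 of 22810 probe sets that are not hybridisation controls. Vip6 mutant arrays make up the other 2, of the same age, and enter here only through the estimate of the spread and as values placed beside those of vip5. The labels give the genotype and the age alone, so the allele of vip5, the accession of the plants, the tissue, and whether arrays 1 and 2 of a genotype came from separate plantings are not given. The p-values below therefore reflect the spread between 2 arrays a genotype, part or all of which may be technical.

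VIP5 (VERNALIZATION INDEPENDENCE) is the plant homologue of the yeast protein Rtf1. Rtf1 belongs to the Paf1 complex, which travels with RNA polymerase II along transcribed genes and is needed for several histone modifications laid down there, among them ubiquitination of histone H2B and methylation of histone H3. In Arabidopsis the complex is best known for keeping up the transcription of FLC and related flowering repressors, and mutants flower early and show defects in growth and floral form. None of the probe sets in the annotation used here is paired with VIP5, VIP6 or another gene of the Paf1 list, so the genotype labels were not checked against the mutated gene.

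Of the 22746 probe sets, 14323 exceeded the 40th percentile of their array on at least 2 of the 6 arrays and were tested. Of these, 7702 name 1 gene and 1124 of those genes carry a symbol, so most of the tested features are known by probe set or locus alone. Median intensities were 183 and 179 on the vip5 arrays and 183 and 189 on the wild type arrays, and the 40th percentile was 104 and 105 in vip5, 104 and 111 in wild type. The arrays of a genotype carry the numbers 1 and 2, and what the numbers mark is not stated. The hybridisation controls, transcripts spiked into the sample, were brighter on array 2 than on array 1, with median ratios between 3.28 and 5.03 over the 4 control transcripts in vip5 and between 1.66 and 1.97 in wild type. Each gene is therefore given array by array, with the log2 difference of vip5 from wild type within number 1 and within number 2 beside their mean. All fold changes are on the log2(intensity + 39.35) scale, which understates the change of dim genes, and 2 arrays a group limit the precision of every value.

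Differences between the genotypes were modest at most genes. The median absolute difference was 0.24 on the log2 scale within number 1 and 0.27 within number 2, about as large as the difference between arrays 1 and 2 of a single genotype, whose median was 0.25 in vip5 and 0.22 in wild type. Vip5 and wild type did not overlap at 5852 tested probe sets (40.9%), of which 2869 (20%) lay higher and 2983 (20.8%) lower in vip5. With 2 arrays a group, a large part of probe sets would not overlap even if the genotypes did not differ. Limma with Benjamini-Hochberg adjustment called 11 probe sets (0.0768%), 5 of them higher (0.0349%) and 6 lower (0.0419%) in vip5. An unadjusted p below 0.05 was reached by 1567 probe sets, against 716 that chance alone gives over this number of tests. A description by size took in 112 probe sets (0.782%) at which the groups did not overlap and vip5 differed at least 2-fold in the same direction within both numbers, 45 higher (0.314%) and 67 lower (0.468%). Of these 112, 58 name 1 gene (26 higher, 32 lower) and 16 carry a symbol. All 11 called probe sets are among the 112.

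**Figure D1:**
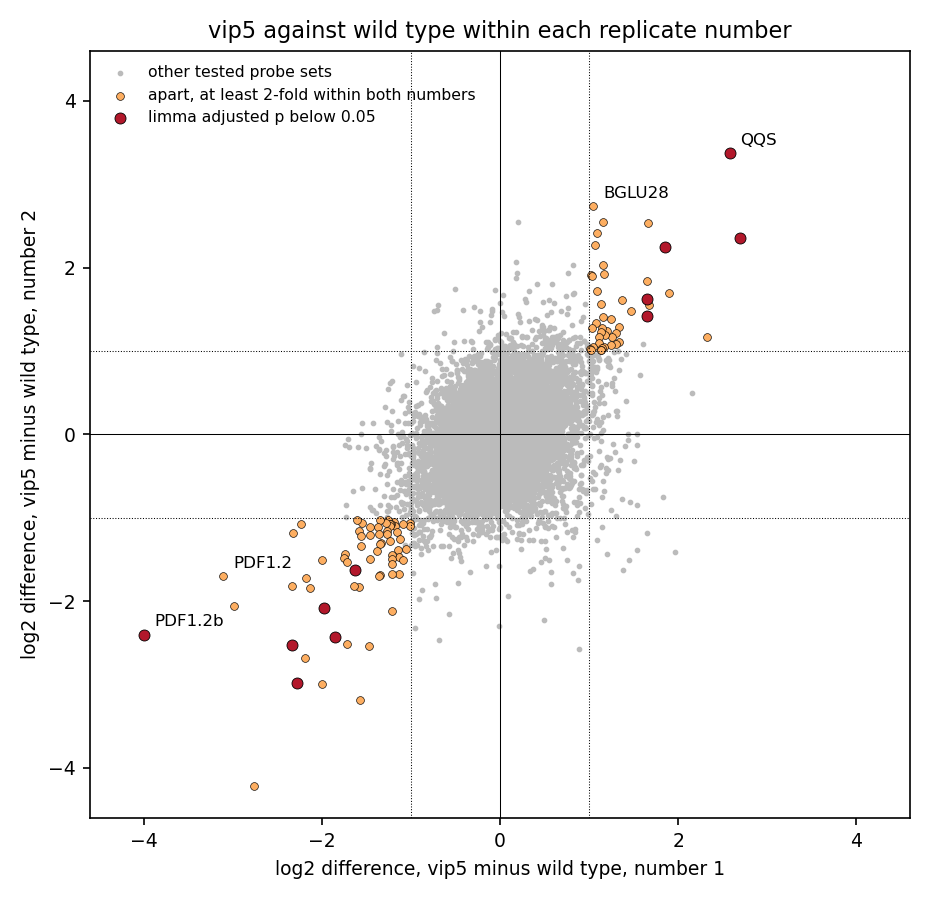
Log2 difference of vip5 from wild type within replicate number 1 (horizontal axis) and within number 2 (vertical axis) for the 14323 tested probe sets. Dark points are the 11 probe sets with a limma adjusted p below 0.05, orange points the rest of the 112 that were apart and at least 2-fold within both numbers (dotted lines at a log2 difference of 1), and grey points all others; QQS stands at the upper right and PDF1.2b at the lower left.

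The highest of the named calls was QQS (AT3G30720), an orphan gene found in Arabidopsis that is known for its effect on leaf starch. Its intensities were 2255 and 2855 in vip5, against 344 and 241 in wild type. Both vip5 arrays thus stood far above both wild type arrays. QQS rose in vip5 by a log2 fold change of 2.98 (SE 0.23, limma adjusted p = 0.00749), with 2.58 within number 1 and 3.37 within number 2.

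Another 3 loci without a symbol in the annotation rose, all above the wild type range on both arrays. AT1G20390, whose annotated biotype is pseudogene, had 350 and 552 in vip5 and 68.6 and 85.5 in wild type, a log2 fold change of 2.05 (SE 0.23, limma adjusted p = 0.0431) with 1.85 within number 1 and 2.24 within number 2. The wild type values lie below the 40th percentile of their arrays, so the locus was dim in wild type alone. AT5G56240 had 1231 and 1237 in vip5 and 367 and 376 in wild type, with differences of 1.65 and 1.62 within the numbers and an adjusted p of 0.0431 from limma. AT1G22480 had 788 and 677 in vip5 and 224 and 228 in wild type, with 1.65 and 1.42 within the numbers and an adjusted p of 0.0431 from limma. The arrays of a genotype lay close together at both loci, closer than at QQS.

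Among the calls that fell, PDF1.2b (AT2G26020) changed most. It encodes a plant defensin, a small antifungal peptide induced by jasmonate and ethylene together. Intensities were 16.8 and 47.2 in vip5, against 858 and 418 in wild type, and the groups were far apart although each spread by 2-fold or more. PDF1.2b fell by 3.20 on the log2 scale (SE 0.34, limma adjusted p = 0.0373), with -4.0 within number 1 and -2.40 within number 2. Its probe set bears the suffix that the array maker gives to probes matching more than 1 transcript, so closely related defensins may add to the signal.

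AT2G19970 fell to 11.5 and 6.3 in vip5, against 218 and 225 in wild type (log2 fold change -2.43, SE 0.17, limma adjusted p = 0.00749). Neither vip5 array reached its 40th percentile there, while both wild type arrays did, and the differences within the numbers were -2.34 and -2.53. AT4G21650 had 316 and 349 in vip5 and 1362 and 1605 in wild type, and it fell by 2.03 on the log2 scale (SE 0.18, limma adjusted p = 0.0197). The number made little difference for this gene, with -1.98 within number 1 and -2.08 within number 2. The other 4 called probe sets have no gene in the annotation and showed log2 fold changes of 2.52, -1.63, -2.14 and -2.63. With any one of the 4 vip5 and wild type arrays left out, which leaves a group of 1 array, none of these 11 probe sets passed the adjusted threshold. Fold changes of the 7 named calls kept their direction then. Log2 values lay between 2.75 and 3.20 for QQS, between 1.62 and 1.65 for AT5G56240 and between -2.51 and -2.36 for AT2G19970. The range was widest for PDF1.2b, from -3.69 to -2.71, and AT1G20390 ran from 1.75 to 2.35. With no filter on dim probe sets 2 of the 11 remained past the adjusted threshold, and QQS then had a limma adjusted p of 0.0508.

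The 16 genes with a symbol in the 2-fold group are described next. They were picked for having a symbol after their values were seen. In the model used here, which leaves the replicate number out, none apart from QQS and PDF1.2b passed the adjusted threshold. With the number in the model the calls differ, as given in the part on processing.

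PDF1.2 (AT5G44420), the defensin gene most used as a readout of the jasmonate and ethylene response, had 25.2 and 26.6 in vip5 and 518 and 175 in wild type. The log2 difference was -3.11 within number 1 and -1.70 within number 2, with a mean of -2.41 (SE 0.40, limma adjusted p = 0.114). Both vip5 arrays were below their 40th percentile, and the wild type arrays differed almost 3-fold from each other. Thionin THI2.1 (AT1G72260), another jasmonate-induced antimicrobial peptide, had 310 and 420 in vip5 and 644 and 626 in wild type, with -0.97 and -0.53 within the numbers and a mean of -0.75 (limma adjusted p = 0.244). These 3 genes are all the tested members of the 5 that the annotation pairs with the list of jasmonate and ethylene defence genes. All 3 were lower in vip5 with no overlap, as were 20.8% of all tested probe sets, and 1 of 3, PDF1.2b, passed the test. Their median log2 fold change was -2.41, the value of PDF1.2, against -0.004 over all tested probe sets. Because the PDF1.2b probe set may take up related defensins, PDF1.2b and PDF1.2 may not be separate measurements. RNA was taken from whole samples, so fewer cells that express a gene and less of its RNA per cell cannot be told apart here or in any result below.

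Other genes of the jasmonate response lay on the opposite side. ORA47 (AT1G74930), an AP2/ERF transcription factor that switches on jasmonate synthesis genes, had 525 and 1357 in vip5 and 229 and 250 in wild type. The log2 difference was 1.07 within number 1 and 2.27 within number 2, with a mean of 1.67 and a wide SE of 0.91 (limma adjusted p = 0.569). The vip5 arrays were both higher than wild type but differed by more than 2-fold from each other. JRG21 (AT3G55970), a dioxygenase that inactivates jasmonate by hydroxylation, was far more even, at 216 and 198 in vip5 and 73.0 and 64.8 in wild type. Its differences were 1.18 within number 1 and 1.19 within number 2, with an SE of 0.17 and a limma adjusted p of 0.0838. Neither wild type array reached its 40th percentile at JRG21, while both vip5 arrays did.

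BGLU28 (AT2G44460) encodes a beta-glucosidase, of a family that releases the active part of stored glucosides. It had 120 and 238 in vip5 and 37.9 and 2.3 in wild type. The groups were apart, both wild type arrays were below their 40th percentile, and the mean log2 fold change was 1.89 (limma adjusted p = 0.180) with 1.05 within number 1 and 2.74 within number 2. ASPGB1 (AT3G16150), an asparaginase that frees the nitrogen of asparagine, had 449 and 1432 in vip5 and 190 and 236 in wild type, with 1.09 and 2.42 within the numbers. GILT (AT4G12960), related to a lysosomal thiol reductase known from mammals, had 250 and 478 in vip5 and 75.1 and 173 in wild type, with 1.34 and 1.28. At GILT both genotypes were brighter on array 2, so the difference kept its size within each number. ALC (AT5G67110), the ALCATRAZ bHLH factor of fruit opening, had 200 and 261 in vip5 and 79.4 and 108 in wild type, with 1.01 and 1.02 within the numbers and a mean of 1.02 (limma adjusted p = 0.209).

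JAL23 (AT2G39330) encodes a jacalin-related lectin, a sugar-binding protein. Its values were 214 and 110 in vip5 and 663 and 830 in wild type. The lower wild type value was about 3 times the higher vip5 value, and the log2 difference was -1.47 within number 1 and -2.55 within number 2 (mean -2.01, SE 0.28, limma adjusted p = 0.0757). LUP5 (AT1G66960), of the oxidosqualene cyclases that form triterpenes, had 28.6 and 38.0 in vip5 and 111 and 163 in wild type, a mean difference of -1.27 with -1.15 and -1.39 within the numbers. TUB1 (AT1G75780), a beta-tubulin, had 330 and 507 in vip5 and 853 and 1178 in wild type, a mean difference of -1.21 with -1.27 and -1.16. MSRB6 (AT4G04840), a methionine sulfoxide reductase that repairs oxidised methionine, had 430 and 491 in vip5 and 1008 and 1159 in wild type, a mean difference of -1.17 with -1.16 and -1.18. TUB1 and MSRB6 were each brighter on array 2 in both genotypes, and vip5 stayed below wild type by nearly the same factor on either number. SBT3.12 (AT4G21326), a subtilisin-like protease, had 37.7 and 59.0 in vip5 and 142 and 172 in wild type, with -1.23 and -1.10 within the numbers.

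**Figure D2:**
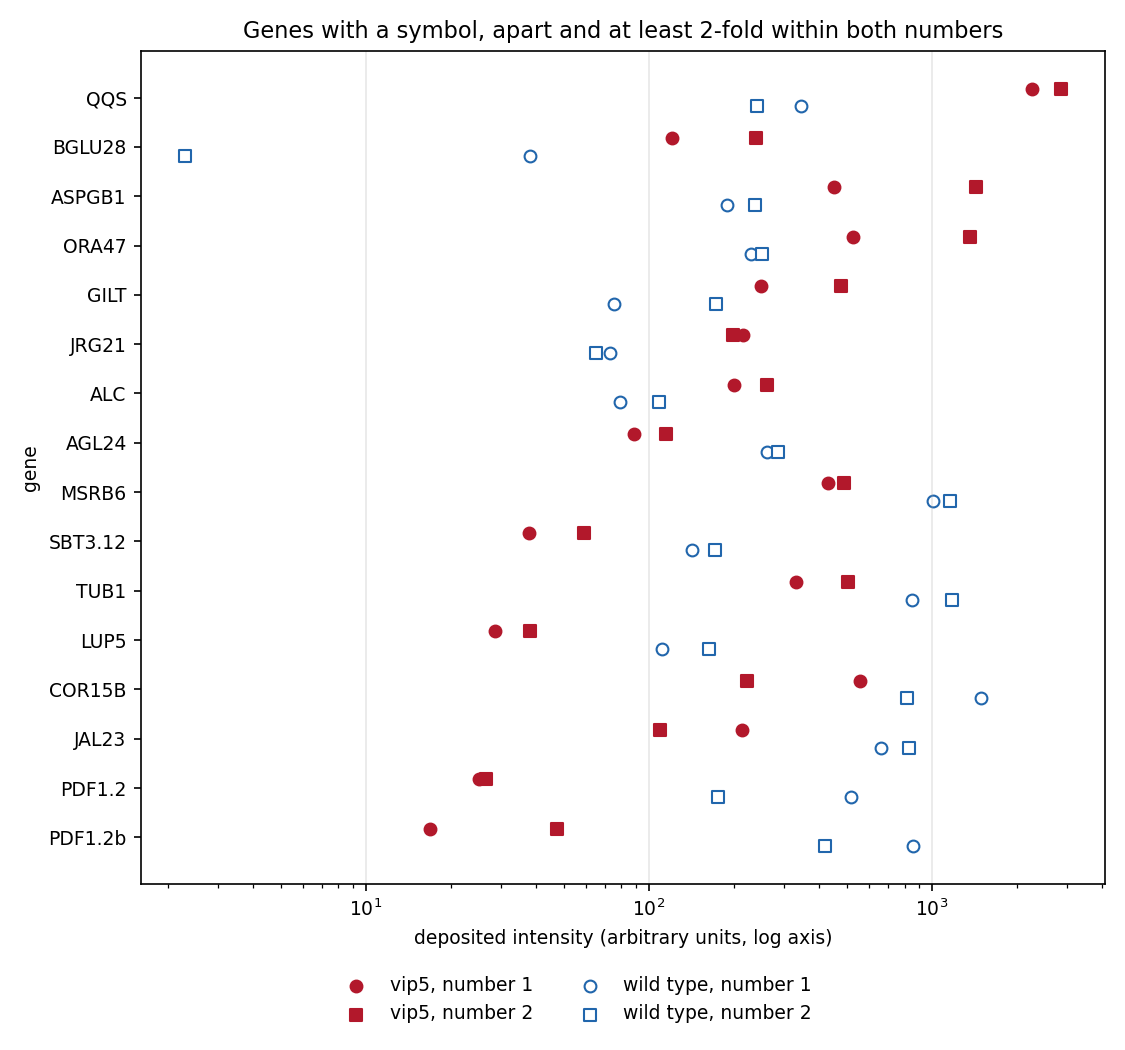
Deposited intensity (log axis, arbitrary units) of the 16 genes with a symbol that were apart and at least 2-fold within both numbers. Each gene has 4 points: filled symbols are vip5, open symbols wild type, circles array number 1 and squares array number 2. From QQS to ALC both vip5 points lie to the right of both wild type points, and from AGL24 to PDF1.2b both lie to the left.

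Among the loci of the 2-fold group without a symbol, several differed as much as the genes above. AT3G16530 had the lowest log2 fold change of all tested probe sets, at 183 and 34.1 in vip5 and 1471 and 1332 in wild type. That is -3.49 on the log2 scale, -2.76 within number 1 and -4.22 within number 2, with a limma adjusted p of 0.0552. AT1G69480 had 69.8 and 58.1 in vip5 and 824 and 368 in wild type, with -2.98 and -2.06 within the numbers (limma adjusted p = 0.0552). Both vip5 arrays were below their 40th percentile at AT1G69480, while AT3G16670, at 249 and 210 in vip5 and 1001 and 1310 in wild type, stayed above it on all 4 arrays. AT3G46880 gave nearly equal differences within the numbers, -1.47 and -1.49, from 58.1 and 42.2 in vip5 and 230 and 190 in wild type. AT1G19960 and AT2G41090 belonged to brighter genes. AT1G19960 had 618 and 171 in vip5 and 2582 and 1629 in wild type, and AT2G41090 had 4433 and 2313 in vip5 and 10317 and 7484 in wild type. Both were lower on array 2 than on array 1 in each genotype, and vip5 lay below wild type on either number. On the higher side AT1G02190, a locus of the cuticular wax list, had 419 and 649 in vip5 and 105 and 79.3 in wild type, with 1.67 and 2.54 within the numbers and a limma adjusted p of 0.0540. AT4G23680 had 1167 and 1949 in vip5 and 496 and 485 in wild type, with 1.17 and 1.92, and AT3G05400 had 491 and 692 in vip5 and 152 and 223 in wild type, with 1.47 and 1.48.

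As a group, the 45 probe sets higher in vip5 had a median log2 fold change of 1.31 and the 67 lower ones -1.39. At 17 of the 45 no wild type array reached its 40th percentile, and at 15 of the 67 no vip5 array did, so part of each group consists of genes that were dim in one genotype. The difference was larger within number 2 at 26 of the 45 and at 32 of the 67. By chromosome, the 58 probe sets of this group that name 1 gene were counted without a test. Chromosome 1 holds 26 of them (44.8%), against 25.9% of the tested probe sets that name 1 gene, and chromosome 5 holds 9 (15.5%), against 23.9%. Chromosomes 2, 3 and 4 hold 7, 9 and 7.

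Flowering genes were examined because VIP genes are known for flowering time. The annotation pairs 8 of the 29 listed flowering genes with a probe set, and 6 were tested; FLC and its relatives are not among them. AGL24 (AT4G24540), a MADS factor that promotes the floral transition, had 88.7 and 115 in vip5 and 262 and 286 in wild type. Both vip5 values were well below both wild type values, and the log2 difference was -1.24 within number 1 and -1.07 within number 2 (mean -1.16, SE 0.20, limma adjusted p = 0.128). AGL18 (AT3G57390), a MADS factor that delays flowering, had 87.6 and 123 in vip5 and 128 and 178 in wild type, a mean of -0.41 with -0.40 and -0.42 within the numbers. FY (AT5G13480), an RNA 3′ processing factor of the autonomous pathway, had 322 and 365 in vip5 and 230 and 274 in wild type, a mean of 0.40 with 0.43 and 0.37. AGL18 and FY did not overlap between the genotypes, but their adjusted p-values from limma were 0.634 and 0.501. LD (AT4G02560), also of the autonomous pathway, and SNZ (AT2G39250), an AP2-like repressor of flowering, overlapped and had mean differences of -0.13 and 0.08. None of the 6 passed the test. With no overlap, 1 (16.7%) was higher and 2 (33.3%) lower, against 20% and 20.8% over all tested probe sets. Their median was -0.026, and it was 0.195 under a stricter filter on dim probe sets.

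The wider family of AGAMOUS-like MADS factors, to which AGL24 belongs, was described from the annotation. Of 44 annotated members 8 were tested, and 2 (25%) lay higher and 4 (50%) lower in vip5 with no overlap, against 20% and 20.8% of all tested probe sets. Their median log2 fold change was -0.47, with -0.55 within number 1 and -0.42 within number 2. AGL87 (AT1G22590) had 123 and 162 in vip5 and 351 and 342 in wild type, with -1.26 and -0.92 within the numbers (mean -1.09, limma adjusted p = 0.122). AGL42 (AT5G62165), known as FOREVER YOUNG FLOWER and for holding back floral organ senescence, had 160 and 128 in vip5 and 301 and 187 in wild type. Its vip5 arrays were both below wild type, by -0.77 within number 1 and -0.43 within number 2.

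Genes of the cold and abscisic acid response were lower in vip5 at all 4 tested members of the list with no overlap, as were 20.8% of all tested probe sets. Their median log2 fold change was -0.69, with -0.87 within number 1 and -0.72 within number 2, and none passed the test. COR15B (AT2G42530), a chloroplast protein that protects membranes during freezing, had 556 and 223 in vip5 and 1492 and 814 in wild type. The log2 difference was -1.36 within number 1 and -1.70 within number 2 (mean -1.53, SE 0.52, limma adjusted p = 0.362), and array 2 was lower than array 1 in both genotypes. COR47 (AT1G20440), a dehydrin, was more even, with 2178 and 2149 in vip5 and 3620 and 3738 in wild type. Its mean difference was -0.76 (SE 0.17, limma adjusted p = 0.187), with -0.72 and -0.79 within the numbers. COR15A (AT2G42540), the neighbour and relative of COR15B, had 642 and 989 in vip5 and 1335 and 1164 in wild type, with -1.01 within number 1 and -0.23 within number 2. LTI30 (AT3G50970), another dehydrin, had 303 and 211 in vip5 and 400 and 354 in wild type, with -0.36 and -0.65. The size of the difference thus hung on the number at COR15A and hardly at all at COR47. In the annotation family of 7 tested cold-regulated and late embryogenesis proteins, these 4 (57.1%) were lower and 0 higher with no overlap. The family median was -0.51. Its other 3 tested members had log2 fold changes above 0, with overlapping groups. Among them was COR27, given below, with a mean of 1.16 (1.32 within number 1 and 1.0 within number 2). Without the filter on dim probe sets the family has 10 members and its median changed sign to 0.03.

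Glucosinolates are the sulphur-rich defence compounds of the cabbage family. Both tested genes of their list of 22 were lower in vip5 with no overlap, as were 20.8% of all tested probe sets. Neither passed the test. BCAT4 (AT3G19710), the aminotransferase that starts the chain elongation of methionine, had 3339 and 3357 in vip5 and 6459 and 7714 in wild type. The vip5 arrays nearly coincided below the wild type range, and the mean difference was -1.07 (SE 0.18, limma adjusted p = 0.122) with -0.94 within number 1 and -1.19 within number 2. AT2G31790 had 1222 and 1313 in vip5 and 1712 and 2376 in wild type, with -0.47 and -0.84.

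QQS apart, the starch list showed no common direction. SBE2.2 (AT5G03650), a starch branching enzyme, had 1702 and 1748 in vip5 and 1907 and 1927 in wild type, with -0.16 and -0.14 within the numbers. DPE1 (AT5G64860), the disproportionating enzyme of starch breakdown, had 908 and 393 in vip5 and 682 and 774 in wild type. PWD (AT5G26570), a kinase that phosphorylates starch for breakdown, had 2391 and 444 in vip5 and 1375 and 711 in wild type. Vip5 was above wild type on number 1 and below it on number 2 at both genes, by 0.39 and -0.91 for DPE1 and by 0.78 and -0.63 for PWD. The same reversal between numbers held for GI (AT1G22770), the GIGANTEA gene of the circadian clock and of day-length flowering, with 1332 and 474 in vip5 and 624 and 770 in wild type. Its difference was 1.05 within number 1 and -0.66 within number 2. COR27 (AT5G42900), a cold-regulated gene, had 1097 and 46.0 in vip5 and 416 and 3.2 in wild type. Array 1 was brighter than array 2 by more than 20-fold in both genotypes at COR27, and vip5 was above wild type within each number, by 1.32 and 1.0, although the groups overlapped. At these 4 genes the spread between arrays 1 and 2 of vip5 was larger than the mean difference between genotypes.

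**Figure D3:**
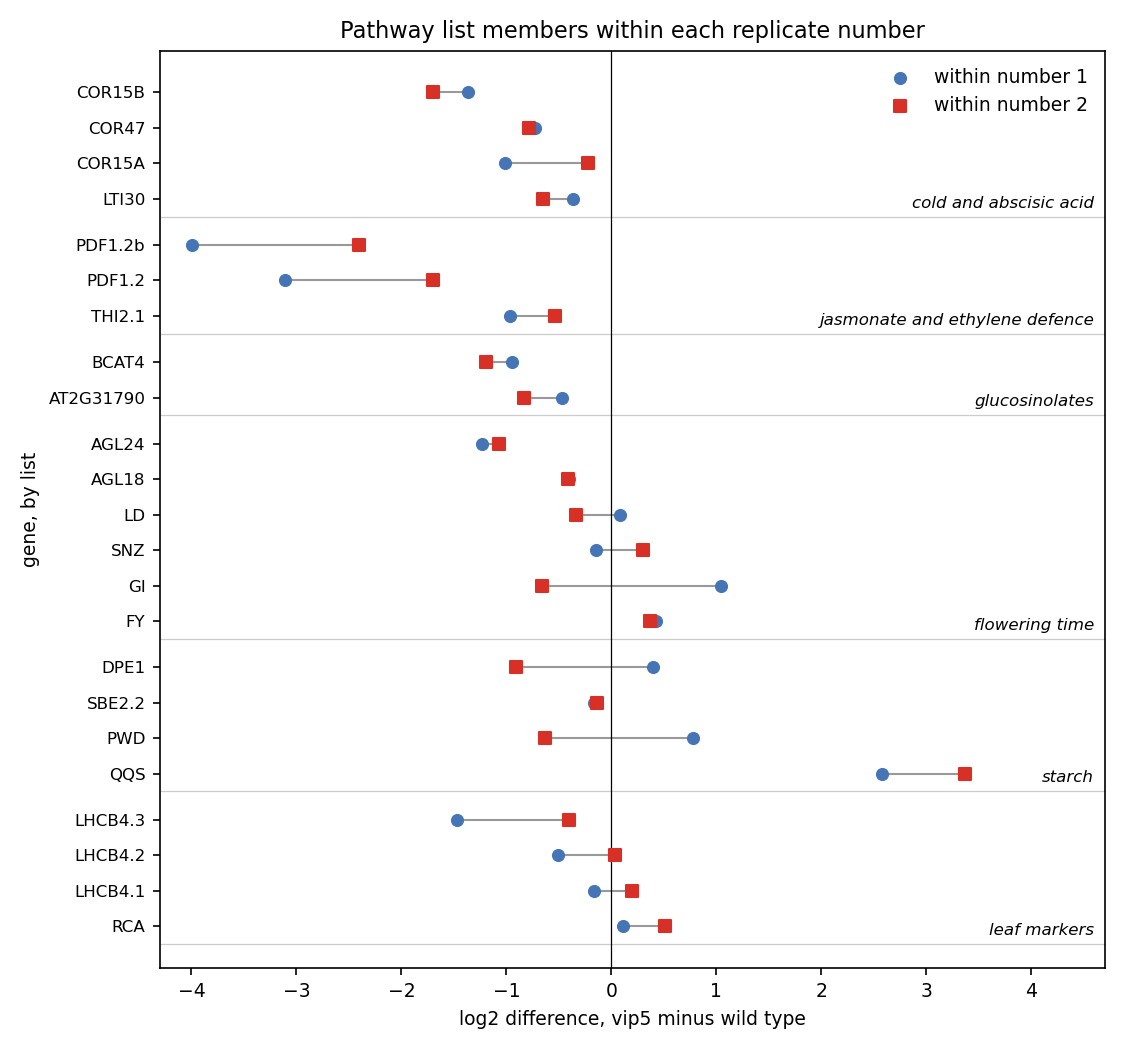
Log2 difference of vip5 from wild type within replicate number 1 (circles) and within number 2 (squares), joined by a line for each tested member of 6 gene lists. The cold and abscisic acid, jasmonate and ethylene defence, and glucosinolate members all lie left of 0 on both numbers, while GI, DPE1 and PWD lie right of 0 on number 1 and left of 0 on number 2.

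The markers of plant parts served to look for a shift in what was sampled. RCA (AT2G39730), the rubisco activase of photosynthetic cells, had 24527 and 46440 in vip5 and 22676 and 32585 in wild type, bright on all 4 arrays and with overlapping groups. The light-harvesting protein genes LHCB4.1 (AT5G01530) and LHCB4.2 (AT3G08940) were also bright, with mean differences of 0.02 and -0.24 and overlapping groups; that of LHCB4.1 turned to -0.08 after quantile normalization. LHCB4.3 (AT2G40100), of the same family, had 2061 and 3103 in vip5 and 5764 and 4105 in wild type, with -1.47 within number 1 and -0.40 within number 2 and a limma adjusted p of 0.289. PYK10 (AT3G09260), an abundant beta-glucosidase of roots, had 897 and 607 in vip5 and 1094 and 1085 in wild type, with -0.28 and -0.80. The flower and anther list was represented by AT5G07230 alone (mean difference 0.15), and that of senescent leaves by SAG101 alone (0.36, groups overlapping). Markers of seeds, meristems, secondary walls and trichomes were not measured under a name, and the part that a different make-up of the samples plays in the results was not tested. The genes often used as a reference, AT2G28390 and AT4G34270, had mean differences of 0.22 and -0.06.

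Beyond the lists, 54 gene families were drawn from the symbols and synonyms in the annotation, and 42 of them had at least 5 tested members, counted as probe sets. Family medians of the log2 fold change ran from -0.64 to 0.31, and the 8 highest and 8 lowest are the ones described, with 1 more that came next. No family contained a called probe set other than PDF1.2b. Members counted as higher or lower below are those at which vip5 and wild type did not overlap. The shares to set beside them are 20% higher and 20.8% lower over all tested probe sets. Families, like the lists above, hold only probe sets that name 1 gene. Over all 7702 tested probe sets of that kind the shares were 18.4% higher and 22.1% lower.

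SWEET genes, which encode the sugar carriers that let sucrose and hexoses out of cells, had the highest median. Of 10 tested members 6 (60%) were higher and 1 (10%) lower in vip5, against 20% and 20.8% of all tested probe sets. The median was 0.31, with 0.26 within number 1 and 0.44 within number 2. SWEET11 (AT3G48740), which exports sucrose for loading into the phloem, had 6397 and 6369 in vip5 and 3333 and 2368 in wild type. The vip5 arrays lay close together above the wild type range, and the mean difference was 1.17 (SE 0.21, limma adjusted p = 0.133) with 0.93 and 1.41 within the numbers. SWEET1 (AT1G21460), a glucose carrier, had 1404 and 1380 in vip5 and 854 and 732 in wild type, with 0.69 and 0.88. SWEET10 (AT5G50790) had 296 and 434 in vip5 and 161 and 190 in wild type, with 0.74 and 1.05. SAG29 (AT5G13170), the senescence-associated SWEET15, had 268 and 347 in vip5 and 158 and 171 in wild type, with 0.64 and 0.88. SWEET13 (AT5G50800) went the other way, at 68.8 and 189 in vip5 and 157 and 273 in wild type, but the groups overlapped. It was named after its values were seen, as a close relative of SWEET11.

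Among transcription factors, the 5 tested bHLH genes had a median of 0.30 and the 13 bZIP genes one of 0.19, with 6 bZIP genes (46.2%) higher and 3 (23.1%) lower in vip5. Of the bHLH genes so named 1 (20%) was higher, a share equal to that of all tested probe sets. Matching by name left out ALC, a bHLH factor that the annotation does not name as one, with a mean difference of 1.02. In bZIP44 (AT1G75390) values were 745 and 801 in vip5 and 330 and 441 in wild type, with 1.09 within number 1 and 0.81 within number 2 (mean 0.95, limma adjusted p = 0.173). BZIP28 (AT3G10800), a membrane-bound factor of the endoplasmic reticulum stress response, had 719 and 576 in vip5 and 567 and 380 in wild type, with 0.32 and 0.56. The related loci AT2G21230 (bZIP30) and AT4G38900 (bZIP29) had mean differences of 0.52 and 0.43 with no overlap. ILR3 (AT5G54680), a bHLH factor of iron homeostasis, had 2677 and 2600 in vip5 and 2337 and 1939 in wild type, a mean difference of 0.30. The 6 tested WRKY genes had a median of 0.11 with 1 higher and 1 lower (16.7% each), near the shares over all tested probe sets. Their median changed sign to -0.035 without the filter on dim probe sets.

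Another 5 families had medians on the higher side. The 8 aldehyde dehydrogenases, which oxidise reactive aldehydes, had a median of 0.18, with 3 (37.5%) higher and 1 (12.5%) lower; ALDH3F1 and ALDH10A9 stood at 0.49 and 0.42 and ALDH2C4 at -0.37. The 11 IQ-domain proteins, which bind calmodulin, had a median of 0.14, with 5 (45.5%) higher and 1 (9.09%) lower. The gene iqd33 (AT5G35670), the highest of them, had 197 and 295 in vip5 and 76.5 and 169 in wild type, with 1.03 and 0.68 within the numbers, while IQD24 (AT5G07240) had a mean difference of -0.58. The 9 tested subunits of Mediator, which links transcription factors to RNA polymerase II, and of the THO complex, which packs nascent RNA for export, had a median of 0.13, with 4 (44.4%) higher and 0 lower. THO5 (AT5G42920) had 745 and 875 in vip5 and 575 and 599 in wild type, with 0.35 within number 1 and 0.52 within number 2. MED19A and MED31 had mean differences of 0.36 and 0.32. The 6 U-box ubiquitin ligases had a median of 0.11, with 1 (16.7%) higher, near the share over all tested probe sets. The 12 ubiquitin-conjugating enzymes, next in the order, had a median of 0.10, with 6 (50%) higher and 3 (25%) lower, a lower share near the 20.8% of all tested probe sets. UBC19, UBC30 and UBC28 had mean differences of 0.61, 0.43 and 0.43, against -0.44 for UBC16.

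Glutamate receptor-like channels had a median of -0.59, lowest but for the defensins, with -0.50 within number 1 and -0.45 within number 2. These channels pass calcium and carry wound signals between leaves. Of 5 tested members 1 (20%) was higher and 3 (60%) lower in vip5, against 20% and 20.8% of all tested probe sets. GLR2.7 (AT2G29120) had 52.1 and 80.3 in vip5 and 134 and 163 in wild type, with -0.92 and -0.76 within the numbers (mean -0.84, limma adjusted p = 0.235). GLR3.6 (AT3G51480) had 175 and 103 in vip5 and 263 and 216 in wild type, with -0.50 and -0.84. GLR3.3 (AT1G42540), with GLR3.6 one of the channels needed for wound-induced electrical signals, had 238 and 326 in vip5 and 462 and 419 in wild type, with -0.85 and -0.33. GLR1.4 (AT3G07520) was the member on the higher side, with a mean difference of 0.24.

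Cell wall and defence families followed among the low medians. The 11 expansins, which loosen the wall during growth, had a median of -0.32 with 0 higher and 2 (18.2%) lower. That lower share is near the 20.8% of all tested probe sets. EXLA1 (AT3G45970) had 401 and 260 in vip5 and 685 and 527 in wild type, with -0.72 and -0.92 within the numbers. EXPA8 (AT2G40610) had 1137 and 1192 in vip5 and 1275 and 2345 in wild type, so that its difference came mostly from number 2, at -0.95 against -0.16 within number 1. The 5 tested defensins and cysteine-rich peptides had the lowest median of the families, -0.64, and were split, with 2 (40%) higher and 3 (60%) lower. Without the filter on dim probe sets all 13 annotated members count, and the median changed sign to 0.19. Beside PDF1.2b and PDF1.2 the lower ones included LCR68 (AT2G02130), at 2024 and 1569 in vip5 and 2786 and 2829 in wild type. LCR66 and LCR69 were on the higher side, LCR69 (AT2G02100) at 5920 and 4278 in vip5 and 3979 and 2852 in wild type, with 0.57 and 0.58 within the numbers.

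Among enzymes of secondary metabolism and redox balance, 0 of 11 tested cytochromes P450 were higher and 5 (45.5%) lower in vip5, and their median was -0.27. Matching by name found 24 probe sets of cytochromes P450. Most of the 11 tested belong to the CYP71B subfamily, several of them at nearby loci, so these shares mainly describe that subfamily. CYP71B24 (AT3G26230) had 124 and 54.7 in vip5 and 236 and 155 in wild type, with -0.75 and -1.05 within the numbers. CYP84A4 (AT5G04330) had 68.6 and 81.9 in vip5 and 148 and 148 in wild type, with -0.79 and -0.63. CYP71B34 (AT3G26300) was steady between arrays, at 257 and 251 in vip5 and 419 and 384 in wild type, with -0.63 and -0.54. The 5 peroxidases had a median of -0.33 with 1 (20%) higher and 3 (60%) lower. They included PRXR1 (AT4G21960), at 12370 and 13703 in vip5 and 15252 and 20045 in wild type, TAPX (AT1G77490), the ascorbate peroxidase of thylakoids, with a mean difference of -0.33, and peroxidase 71 (AT5G64120) with -0.56. Peroxidase 25 (AT2G41480) was the exception at 0.59. The 7 glutathione transferases had a median of -0.23 with 2 (28.6%) higher and 4 (57.1%) lower. GSTU20, GSTU23 and GSTU18 stood at -0.64, -0.56 and -0.45 and GSTU27 at 0.50. The median of the family changed sign to 0.18 under a stricter filter on dim probe sets, which leaves fewer members.

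**Figure D4:**
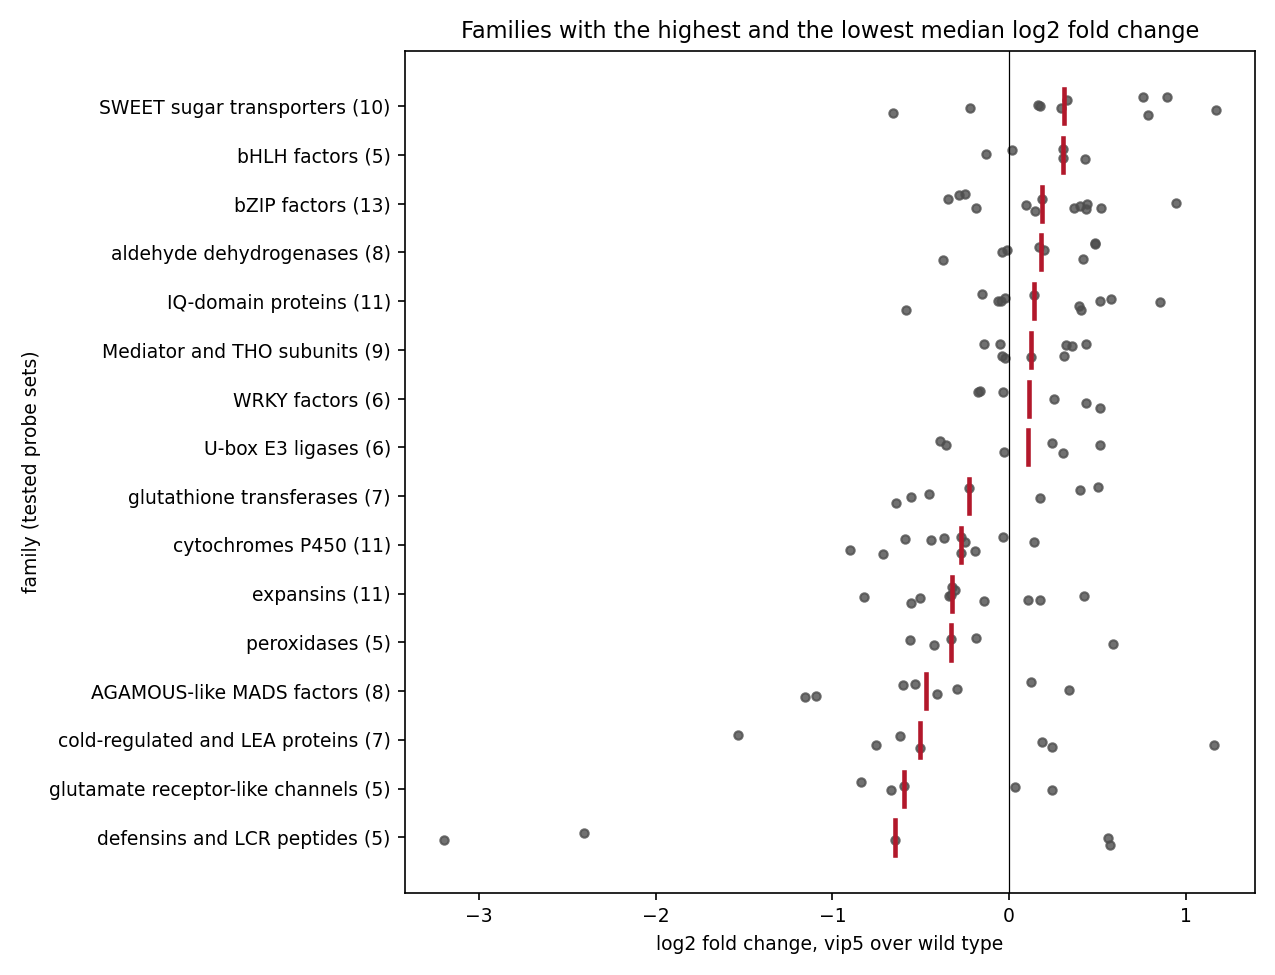
Log2 fold change of vip5 over wild type for each tested probe set (grey points) of the 8 families with the highest and the 8 with the lowest median (red bars); the number of tested probe sets stands in brackets. Medians run from 0.31 for the SWEET sugar transporters to -0.64 for the defensins and cysteine-rich peptides, and single members of most families lie on both sides of 0.

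Gene length was set beside the difference because the Paf1 complex acts along the length of transcribed genes. The 7579 tested probe sets that name 1 nuclear protein-coding gene were divided into 5 classes of nearly equal size by annotated length. The median log2 fold change was -0.075 in the shortest class (165 to 1602 bases), -0.046, -0.018 and 0.010 in the next 3 classes and 0.022 in the longest (3556 to 26499 bases). The share of probe sets lower in vip5 with no overlap was 28% in the shortest class and 15.1% in the longest, and the share higher was 15.9% and 21.1%. Within number 1 the medians ran from -0.127 in the shortest to 0.085 in the longest class, and within number 2 from -0.041 to -0.025, so the gradient was mainly one of number 1. By mean intensity, the median ran from -0.037 in the dimmest of 5 classes of all tested probe sets to 0.044 in the brightest. That gradient was one of number 2, from -0.063 to 0.056, while number 1 had 0.023 in the dimmest and 0.022 in the brightest class. What the arrays add to either gradient was not tested. The genes of the 2-fold group were short, with a median length of 1714 bases for the higher and 1822 bases for the lower ones, against 2372 bases for all 7579 probe sets. The 68 tested probe sets of the chloroplast genome had a median of -0.11, but -0.34 within number 1 and 0.08 within number 2.

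**Figure D5:**
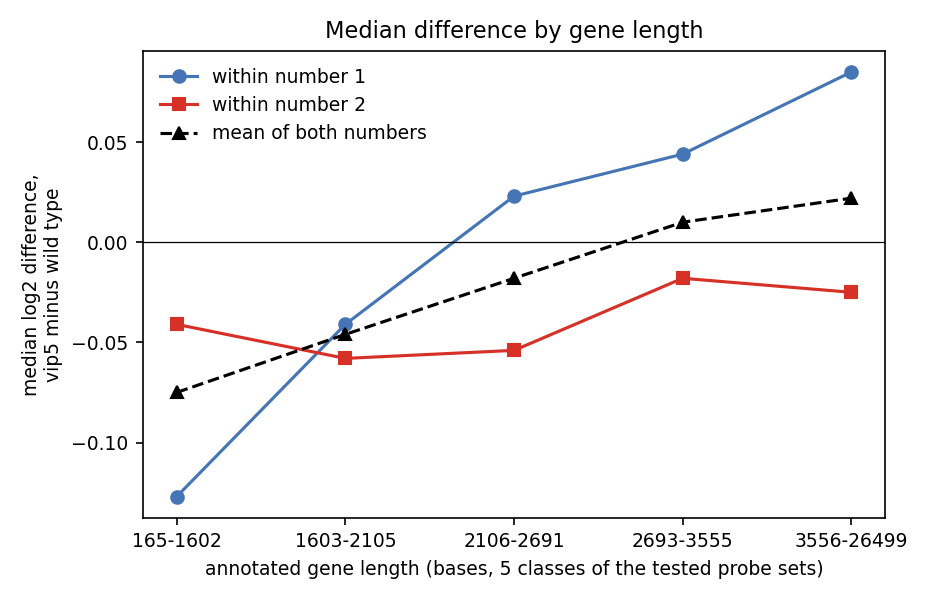
Median log2 difference of vip5 from wild type over 5 classes of annotated gene length (horizontal axis, bases), within number 1 (circles), within number 2 (squares) and for their mean (triangles). Number 1 runs from -0.127 in the shortest to 0.085 in the longest class, while number 2 stays between -0.058 and -0.018.

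The vip6 arrays share the wild type arrays with vip5, so the mutants' values are only placed side by side. PDF1.2b had log2 fold changes of -3.20 in vip5 and -3.04 in vip6, AT4G21650 had -2.03 and -1.92, AT5G56240 had 1.63 and 1.72, and SWEET11 had 1.17 and 1.18. QQS had 2255 and 2855 in vip5, 466 and 525 in vip6 and 344 and 241 in wild type. The direct contrast of vip5 with vip6 at QQS was 2.27 on the log2 scale (95% interval 1.75 to 2.80), with a limma adjusted p of 0.161. AT1G76960, with 218 and 327 in vip5, 500 and 955 in vip6 and 746 and 707 in wild type, also differed between the mutants by -1.25 (95% interval -1.98 to -0.53). Its limma adjusted p for that contrast was 1.0, so neither difference passed the adjusted threshold.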

How the data were processed

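RNA of 3-week-old plants was measured on 6 arrays, 2 each of vip5, vip6 and wild type, grouped by the sample titles. Linear intensities, 1 value for each probe set and array, are what the authors deposited; from the values, each array had been scaled to a mean of 500 with the lowest and highest 2% left out. Which software computed them is not stated in the labels.

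Values were taken as log2(intensity + 39.35), the pseudocount being the 25th percentile of an array, taken as the median of the 6. Without the 64 controls, probe sets above the 40th percentile of their array on at least 2 of 6 arrays were tested. One limma model (limma 3.58.1, R 4.3.3; figures matplotlib 3.10.9, Python 3.11.15) with a mean for each of 3 genotypes was fitted to the 6 arrays, two-sided, with Benjamini-Hochberg adjustment over 14323 probe sets at 0.05. In a check on simulated arrays 8.05% of the calls were false, more than the level of 0.05 aims at. That check found 67.8% of 2-fold and 100% of 4-fold changes. Its noise was independent between arrays, with a spread set by intensity alone and no shared effect of the number. The rates therefore do not carry over to the real arrays. There AT3G16530 at -3.49 and PDF1.2 at -2.41 did not pass the adjusted threshold. SEs come from this model.

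Of 22746 probe sets, 13513 name 1 gene, 503 several and 8730 none in the platform annotation; 13436 loci matched the TAIR10.1 gene table, used for symbols, biotypes and gene lengths only. Named genes are single-gene calls, the 20 highest and 20 lowest of the 2-fold group, up to 6 tested members of each of 22 lists and up to 4 members of the 8 highest and 8 lowest families, matched by symbol and synonym. The 16 symbol-bearing genes and any others were added after values were seen. Text names a selection of these. Lists of salicylic acid defence, flavonoids, touch response and cuticular wax had at most 4 tested members and no call, with medians of 0.09, -0.14, 0.78 and 1.04; those of sugar starvation and phosphate starvation had none. The members, lists and families were chosen with earlier results of these data known, and family patterns were rewritten after the annotation was seen. Alternatives covered normalization, pseudocount, filter, variance model, arrays in the fit, a replicate block and each array left out.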

Additional observations from a re-analysis of the deposited data

How the results depend on the processing

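The number of probe sets called, 11 in the model described, stayed within 1.5 times under quantile normalization, a pseudocount of 100, a stricter filter, an intensity trend and a robust fit. It was 18 with the 4 vip5 and wild type arrays alone, 4 with a pseudocount of 10 and 2 with no filter. With each array left out in turn it lay between 0 and 18: 1 without vip5 replicate 1, 0 without vip5 replicate 2 or either wild type array, and 18 without either vip6 array. The 18 hold 10 of the 11. Where a group keeps 1 array, that array is assumed to vary like the rest. Taking the replicate number as a block gave 313 calls (2.19%), 140 higher and 173 lower, among them all 11, 42 of the 45 higher and all 67 lower probe sets of the 2-fold group. With it 40 of the 107 genes named in the text passed, against 7 without it, and so did 15 of the 16 symbol-bearing genes of the 2-fold group (ORA47 did not). It gave 313 with the 4 arrays alone, 264 after quantile normalization and, an alternative chosen after seeing the data, 5 to 1304 calls with each array left out (8 and 5 for the vip5 arrays, 1304 and 815 for those of wild type, 313 for either vip6 array). All 11 stayed called under the block without either wild type array. Over the tested probe sets, the difference between arrays 1 and 2 correlated at 0.306 between vip5 and wild type and at 0.655 between vip5 and vip6, and hybridisation controls were brighter on array 2 in all 3 genotypes. The labels do not say what the numbers mark, so pairing was not assumed. The 112 probe sets of the 2-fold group became 176 with a pseudocount of 10 and 59 with one of 100, counts also added after the data were seen.

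Of 107 genes named in the text, 1 changed sign in an alternative other than leaving out an array: LHCB4.1, at -0.08 after quantile normalization with and without the block. With each array left out, 10 changed sign, and their log2 fold changes ranged from -0.15 to 0.77 for RCA, -0.44 to 0.47 for LHCB4.1, -0.62 to 0.14 for LHCB4.2, -0.51 to 0.90 for GI, -0.30 to 0.04 for LD, -0.30 to 0.46 for SNZ, -0.83 to 0.31 for DPE1, -1.09 to 1.24 for PWD, -0.15 to 0.04 for AT4G34270 and -0.70 to 3.03 for COR27. The cause of these changes was not tested. Without background values in the table, no detection limit can be set for dim probe sets.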

Other observations

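Families near the middle of the order held members that stood apart in opposite directions; these genes were chosen after their values were seen. Among methionine sulfoxide reductases, MSRB9 had 335 and 241 in vip5 and 134 and 112 in wild type (log2 fold change 1.0, limma adjusted p = 0.230), opposite to MSRB6 at -1.17. Of 7 tested tubulins, TUB9 had 3532 and 2307 in vip5 and 2066 and 1930 in wild type (0.51), against TUB1 at -1.21 and TUA1 at -0.35, and the family median was 0.005. The beta-glucosidase BGLU47 had 130 and 239 in vip5 and 341 and 470 in wild type (-1.02, limma adjusted p = 0.346), while BGLU28 was at 1.89.

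Some families of cell wall enzymes also had members on both sides, with more of them lower than higher. Cellulose synthase-like genes differed, with 2 (28.6%) of 7 tested probe sets higher and 0 lower with no overlap. Glycosyl hydrolase family 9 endoglucanases had 0 higher and 2 (25%) lower of 8, with a median of -0.012. Xyloglucan endotransglucosylase/hydrolases cut and rejoin wall xyloglucan. Of 4 tested probe sets 1 (25%) was higher and 3 (75%) lower with no overlap, and the median was -0.445. XTH18 had 123 and 168 in vip5 and 55.1 and 70.0 in wild type (0.85). XTH16 had 435 and 619 in vip5 and 873 and 926 in wild type (-0.75). Trichome birefringence-like proteins acetylate wall polymers. Of their 17 tested probe sets 3 (17.6%) were higher and 7 (41.2%) lower in vip5 with no overlap, against 20% and 20.8% of all tested probe sets. The family median of -0.078 changed sign to 0.015 without the filter on dim probe sets and to 0.028 under a stricter one. TBL38 was highest at 913 and 900 in vip5 and 530 and 472 in wild type (0.81, limma adjusted p = 0.175). JAL34, a lectin related to JAL23, had 142 and 71.9 in vip5 and 222 and 259 in wild type (-0.98).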
